A study of Rattus norvegicus with 12 samples.

Results

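The genes described here drive and carry out the cell division cycle in rat kidney. They were a listed set of 41, of which 37 had a probe set naming that gene alone on the array, out of 14204 genes so measured. Where a gene had several such probe sets, the brightest one on average over the 12 arrays stood for it. Cdc6, Gins2, Rrm2 and Tpx2 had no such probe set and were left out. Of the 37 genes, 7 are drivers of the step from G1 into S phase, 10 belong to DNA replication and nucleotide supply, and 20 belong to mitosis or mark dividing cells. The spindle checkpoint kinase Bub1b averaged 5.04 in PCK, 5.33 in SD, 5.39 in FHH.Pkhd1 and 5.14 in FHH kidneys on the log2 scale. All of these lay below the detection level of 5.74 used here, so Bub1b was not tested and 36 genes were.

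The kidneys came from 4 rat strains, all killed at 30 days of age and all fed the 5LOD diet. PCK is of Sprague Dawley origin and is mutant in Pkhd1, whose human counterpart is mutated in recessive polycystic kidney disease, and SD is that stock without the mutation. FHH.Pkhd1 is a congenic strain, FHH.PCK-(D9Rat35-D9Rat70)/Mcwi, with a PCK segment between 2 markers of chromosome 9 on the Fawn Hooded Hypertensive background, and FHH is that background strain. The whole of the segment, not the mutation alone, therefore separates FHH.Pkhd1 from FHH, and PCK and SD are separate colonies. Both kidneys of 6 animals per strain were taken, their RNA was combined into 1 pool per strain, and each pool was hybridized to 3 Affymetrix rat arrays. The replicates are technical. Every SD, SE and p below therefore weighs pools by how far arrays of 1 pool scatter, and animal-to-animal variation does not enter. No sex of the animals was given in the labels.

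Cells enter the cycle when D-type cyclins with Cdk4, and then E-type cyclins with Cdk2, inactivate the retinoblastoma proteins and free E2F factors to transcribe the replication genes. Replication origins are loaded with the Mcm helicase by Cdt1 and Cdc6 and fired in S phase, and the mitotic genes, many of them under the DREAM and B-Myb complexes at CHR and CCAAT elements, are transcribed later, in G2 and M. In the young kidney, tubule cells still divide as the organ grows. In polycystic kidney disease, cyst-lining epithelium is known for division beyond that of normal tubules.

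The signals were deposited log2 values with array medians of 6.41 to 6.46, and correlations between arrays were 0.9973 to 0.9985 within a pool and 0.9862 to 0.9959 between pools. A gene passed when its limma p, adjusted by Benjamini and Hochberg over the 10887 genes tested, was under 0.05, and it was called when its difference also reached 1.5-fold. The detection level was set at the 40th percentile of the deposited values, with no background measured. Markers of the thick ascending limb, Umod and Slc12a1, were high in all 4 pools, with mean log2 levels of 12.92 to 13.09 over the arrays, as the kidney label says. Levels are compared between pools of the same gene and not between genes, since a probe's brightness depends on its sequence.

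The promoters of 6 genes are printed because these genes carry the differences described below, and because the replication and mitosis genes hold different sequence elements. Each runs from 250 bases before to 50 bases after the start site, 5′ to 3′ on the gene's own strand, from RefSeq on the GRCr8 assembly. Capitals mark 3 motifs searched on both strands. The first is the E2F motif as TTTCCCGC, TTTCGCGC, TTTGCCGC or TTTGGCGC. The second is the CHR element TTTGAA, and the third is CCAAT. Cdt1 is at chr19:67528999-67529298 (plus strand), Mcm6 at chr13:42404303-42404602 (minus), Cdc25b at chr3:138859923-138860222 (plus), Cdk1 at chr20:19265043-19265342 (plus), Ccnb2 at chr8:79981609-79981908 (minus) and Mki67 at chr1:199952544-199952843 (minus).
Cdt1: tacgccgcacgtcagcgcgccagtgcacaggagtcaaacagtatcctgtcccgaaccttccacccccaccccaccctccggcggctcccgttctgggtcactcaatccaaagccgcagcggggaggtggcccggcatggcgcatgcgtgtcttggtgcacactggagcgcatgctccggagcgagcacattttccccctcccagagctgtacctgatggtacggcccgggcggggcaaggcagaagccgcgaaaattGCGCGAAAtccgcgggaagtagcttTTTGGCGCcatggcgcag
Mcm6: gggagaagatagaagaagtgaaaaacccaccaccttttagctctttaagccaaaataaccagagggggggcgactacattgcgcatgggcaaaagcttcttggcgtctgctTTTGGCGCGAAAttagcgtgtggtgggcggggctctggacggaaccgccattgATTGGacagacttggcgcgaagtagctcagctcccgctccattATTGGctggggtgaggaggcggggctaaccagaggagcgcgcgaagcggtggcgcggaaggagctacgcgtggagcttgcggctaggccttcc
Cdc25b: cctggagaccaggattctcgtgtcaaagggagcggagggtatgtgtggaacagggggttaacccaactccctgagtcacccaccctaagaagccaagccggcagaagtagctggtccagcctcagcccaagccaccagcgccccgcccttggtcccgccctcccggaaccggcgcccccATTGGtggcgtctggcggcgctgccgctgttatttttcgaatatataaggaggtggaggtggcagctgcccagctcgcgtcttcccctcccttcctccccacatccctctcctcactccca
Cdk1: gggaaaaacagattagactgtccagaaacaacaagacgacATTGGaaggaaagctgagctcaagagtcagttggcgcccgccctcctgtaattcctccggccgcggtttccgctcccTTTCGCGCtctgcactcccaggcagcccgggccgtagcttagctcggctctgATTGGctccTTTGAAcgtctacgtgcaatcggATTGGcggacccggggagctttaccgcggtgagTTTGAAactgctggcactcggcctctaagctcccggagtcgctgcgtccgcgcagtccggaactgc
Ccnb2: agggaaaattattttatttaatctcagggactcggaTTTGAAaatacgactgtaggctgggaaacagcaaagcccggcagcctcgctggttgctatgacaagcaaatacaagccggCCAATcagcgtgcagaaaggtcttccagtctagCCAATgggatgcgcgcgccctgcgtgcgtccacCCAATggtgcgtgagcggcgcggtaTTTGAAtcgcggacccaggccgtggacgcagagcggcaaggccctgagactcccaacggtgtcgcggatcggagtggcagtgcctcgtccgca
Mki67: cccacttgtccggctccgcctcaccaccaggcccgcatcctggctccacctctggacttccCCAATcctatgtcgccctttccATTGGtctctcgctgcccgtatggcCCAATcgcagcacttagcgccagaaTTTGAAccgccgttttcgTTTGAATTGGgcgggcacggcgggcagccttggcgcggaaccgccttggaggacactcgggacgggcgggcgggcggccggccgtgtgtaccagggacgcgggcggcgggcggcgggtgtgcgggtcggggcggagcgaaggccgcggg

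RefSeq promoter entries matched 29 of the 37 genes with a probe set. Ccnd1, Ccnd2, Ccne2, E2f1, Mcm4, Ccna2, Aurkb and Ube2c were not matched. The E2F motif stood in 6 of 9 matched replication promoters (66.7%), in 1 of 17 mitosis promoters (5.88%) and in 2.14% of all 33469 promoters of this length. The replication promoters with it were those of Cdt1, Mcm2, Mcm5, Mcm6, Mcm7 and Tyms, and the mitosis promoter with it was that of Cdk1. In Cdt1 both matches lay after the start site, beginning at bases 8 and 33, whereas the 2 overlapping matches of Mcm6 began at bases -139 and -135. The CHR element stood in 11 of 17 mitosis promoters (64.7%), in 1 of 9 replication promoters (11.1%, Mcm2) and in 18.3% of all promoters. CCAAT stood in 14 of 17 mitosis promoters (82.4%), in 5 of 9 replication promoters (55.6%) and in 37.5% of all promoters. Mki67 held 2 CHR elements and 4 CCAAT boxes, and its second CHR element shares its last base with the CCAAT box at base -94. Cdc25b held a single CCAAT box at base -71 and neither of the other motifs. These matches describe letters in a window and are not evidence of binding.

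Across the 36 tested genes, the PCK pool was lowest and the FHH.Pkhd1 pool highest for most. The mean was lowest in PCK for 30 genes, in SD for 2, in FHH.Pkhd1 for 2 and in FHH for 2, where 35.1% of all genes tested were lowest in PCK. It was highest in FHH.Pkhd1 for 29 genes, against 37.4% of all genes tested, in SD for 5, in FHH for 2 and in PCK for none. The genes not lowest in PCK were Ccnd1 and Tyms (lowest in SD), Cdc25b and Kif11 (lowest in FHH.Pkhd1) and Plk1 and Birc5 (lowest in FHH). Those not highest in FHH.Pkhd1 were Ccnb1, Cdc25b, Kif20a, Prc1 and Ube2c, highest in SD, and Cdk4 and Kif11, highest in FHH. This order used the brightest probe set of each gene. Other detected probe sets of Ccnd1 and Kif11 were lowest in PCK, whereas that of Cdk2 was lowest in SD and the dimmest of Tk1 in FHH.Pkhd1. The other probe set of Ccnb1 was highest in FHH.Pkhd1, and those of Tk1 were highest in SD. In whole kidney RNA, fewer dividing cells and less RNA per dividing cell cannot be told apart.

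**Figure D1:**
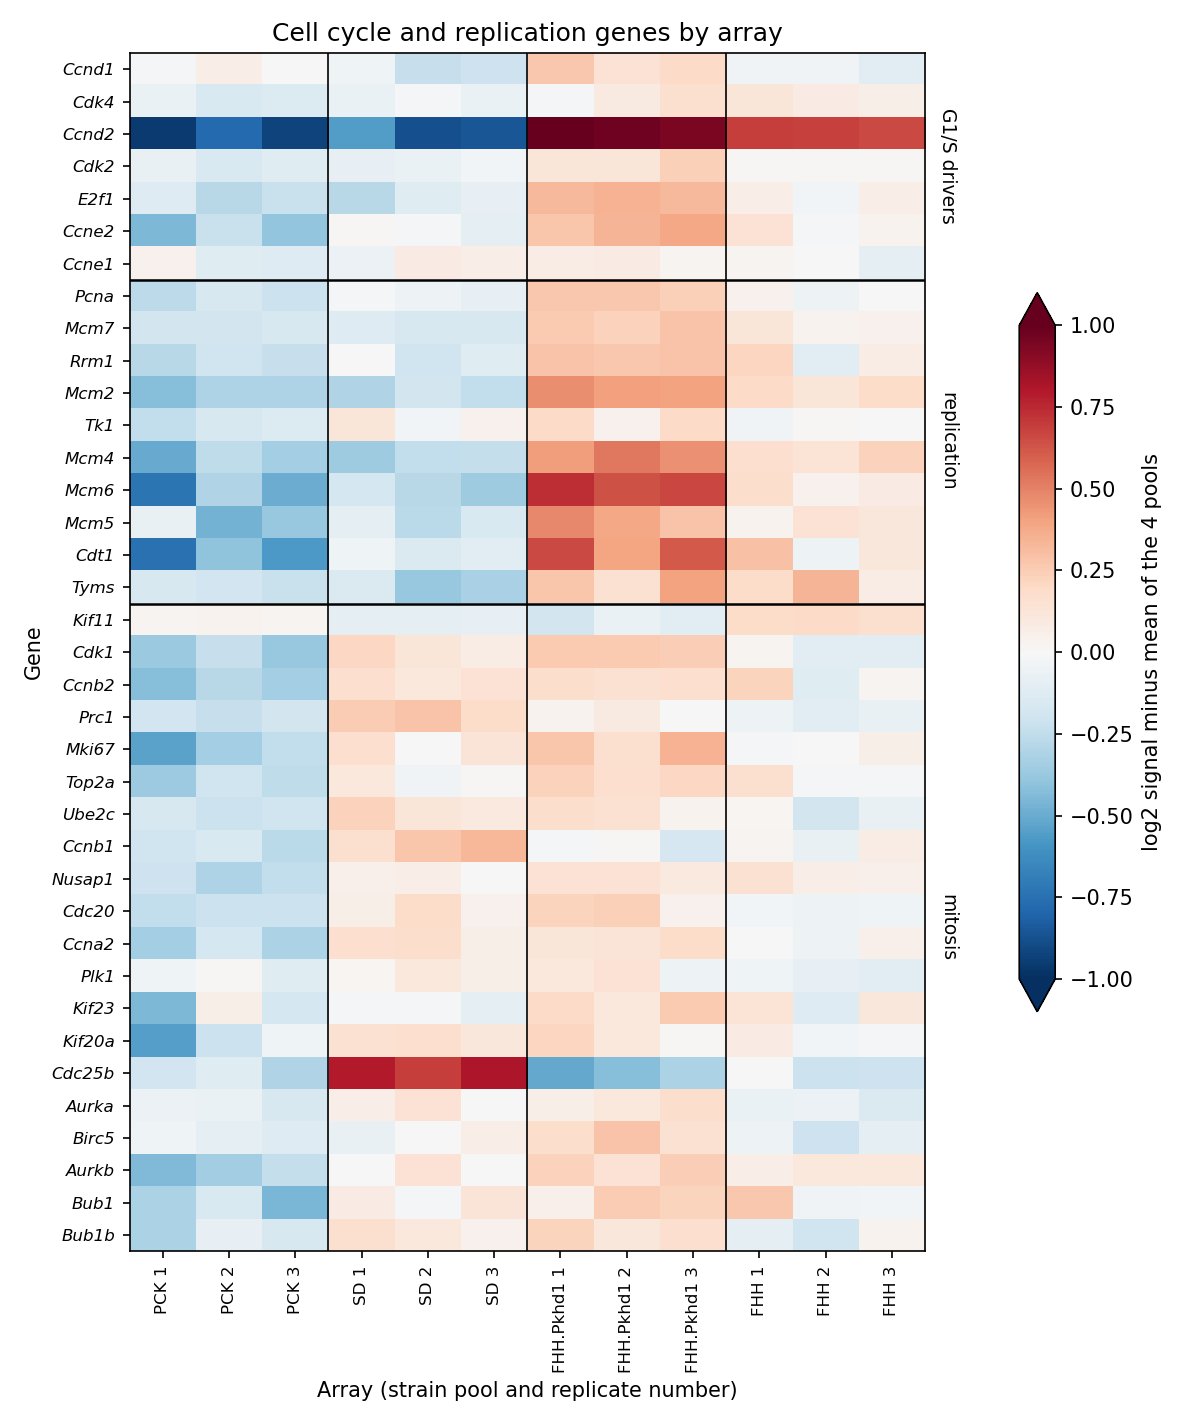
Heat map of the 37 genes (rows, in the order of G1/S drivers, replication and mitosis) on the 12 arrays (columns, 3 per strain pool), with colour showing the log2 signal minus the mean of the 4 pools and limited to -1 to 1. Most rows are lowest in the PCK columns and highest in the FHH.Pkhd1 columns, with Kif11 and Cdc25b as rows that go another way.

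The replication and mitosis genes were ordered differently among the pools. With each gene centred on its own mean, the median of the replication genes was -0.27, -0.23 and -0.27 on the PCK arrays and -0.11, -0.19 and -0.16 on the SD arrays. It was 0.35, 0.33 and 0.34 on the FHH.Pkhd1 arrays and 0.17, 0.04 and 0.08 on the FHH arrays. The order for replication genes was thus PCK, SD, FHH and FHH.Pkhd1 from low to high, and no 2 pools overlapped. For the mitosis genes the median was -0.24, -0.20 and -0.24 on the PCK arrays and 0.11, 0.12 and 0.07 on the SD arrays. It was 0.17, 0.15 and 0.15 on the FHH.Pkhd1 arrays and 0.03, -0.06 and -0.02 on the FHH arrays. Here the SD pool stood above FHH and close below FHH.Pkhd1, and again no 2 pools overlapped. The G1/S drivers lay between -0.15 and -0.07 in PCK, between -0.08 and -0.07 in SD, between 0.14 and 0.27 in FHH.Pkhd1 and between 0.00 and 0.07 in FHH. For these drivers PCK and SD overlapped.

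The replication median minus the mitosis median was -0.03, -0.02 and -0.03 on the PCK arrays and -0.22, -0.31 and -0.22 on the SD arrays. It was 0.18, 0.18 and 0.19 on the FHH.Pkhd1 arrays and 0.15, 0.10 and 0.10 on the FHH arrays. The arrays of no 2 pools overlapped. The zero of this scale is set by centring each gene over the 4 pools, so the sign of a value has no meaning of its own. Between pools, the median difference of replication genes minus that of mitosis genes was 0.24 for PCK minus SD, 0.12 for FHH.Pkhd1 minus FHH, -0.23 for PCK minus FHH.Pkhd1 and -0.37 for SD minus FHH. These medians are descriptions of listed genes and were not tested.

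**Figure D2:**
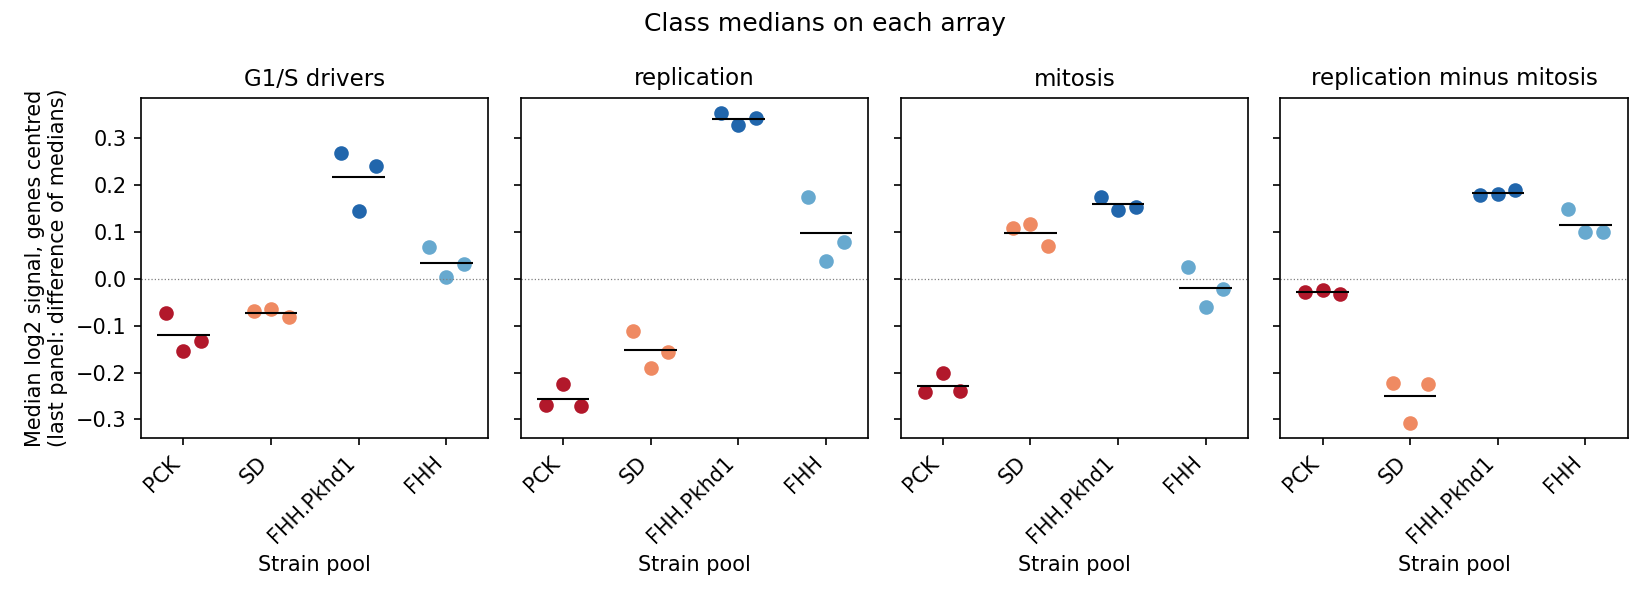
Median log2 signal of the G1/S drivers, the replication genes and the mitosis genes on each array, with genes centred, and in the last panel the replication median minus the mitosis median, plotted by strain pool with 3 points and a line at their mean per pool. Replication genes are at 0.33 to 0.35 in FHH.Pkhd1 and at -0.27 to -0.23 in PCK. The difference between classes is lowest on the SD arrays, at -0.31 to -0.22, and the zero of each panel is set by the centring over the 4 pools.

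Among the G1/S drivers, Ccnd2, a D-type cyclin that binds Cdk4 and Cdk6, separated the backgrounds. Its log2 signal was 7.73, 7.91 and 7.76 on the PCK arrays and 8.12, 7.81 and 7.83 on the SD arrays. It was 9.69, 9.65 and 9.63 on the FHH.Pkhd1 arrays and 9.37, 9.37 and 9.35 on the FHH arrays. All arrays of the FHH background lay more than 1 log2 unit above all arrays of PCK and SD, whose values overlapped each other. PCK fell by 1.86 ± 0.07 relative to FHH.Pkhd1 (SE, 3.63-fold, limma adjusted p = 1.01e-09), and SD fell by 1.44 ± 0.07 relative to FHH (2.72-fold, limma adjusted p = 2e-08). FHH.Pkhd1 exceeded FHH by 0.30 ± 0.07 (limma adjusted p = 0.0128), and the PCK minus SD difference of -0.12 ± 0.07 did not pass (limma adjusted p = 0.223).

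Ccne2, an E-type cyclin that activates Cdk2 at the start of S phase, had signals of 6.36, 6.58 and 6.40 on the PCK arrays and 6.82, 6.79 and 6.71 on the SD arrays. The signals were 7.08, 7.14 and 7.19 on the FHH.Pkhd1 arrays and 6.95, 6.78 and 6.84 on the FHH arrays. PCK was below every other array and FHH.Pkhd1 above every other array, while SD and FHH overlapped. Ccne2 fell by 0.33 ± 0.06 in PCK relative to SD (limma adjusted p = 0.00137) and rose by 0.28 ± 0.06 in FHH.Pkhd1 relative to FHH (limma adjusted p = 0.00646). Its PCK minus FHH.Pkhd1 difference of -0.69 ± 0.06 (1.61-fold, limma adjusted p = 1.86e-06) shrank to -0.28 when the mean over its probe sets was used, and the second of these lay below the detection level.

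E2f1, the transcription factor that opens the replication programme, averaged 6.78 ± 0.07 in PCK, 6.83 ± 0.10 in SD, 7.32 ± 0.01 in FHH.Pkhd1 and 7.02 ± 0.06 in FHH kidneys (SD, n = 3 arrays of 1 pool each). It was higher in FHH.Pkhd1 than in FHH by 0.30 ± 0.05 (SE, limma adjusted p = 0.00203), and its PCK minus SD difference was -0.05 ± 0.05 (limma adjusted p = 0.503). Cdk2, the partner of cyclins E and A, was higher by 0.15 in FHH.Pkhd1 than in FHH and passed, whereas its PCK minus SD difference of -0.05 did not. Ccnd1, another D-type cyclin, rose by 0.26 in FHH.Pkhd1 relative to FHH on its main probe set, while its other probe sets gave 0.04 and 0.22. For PCK minus SD its main probe set gave 0.18 ± 0.05 (limma adjusted p = 0.019), but its 2 other probe sets gave -0.15 and -0.21, so its direction in that comparison depends on the probe set. Cdk4, the kinase of the D-type cyclins, differed by -0.01 between FHH.Pkhd1 and FHH and by -0.07 between PCK and SD, and neither passed. Ccne1, the other E-type cyclin, ranged over pool means of 6.09 to 6.22 and passed in no comparison.

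Of the replication genes, Cdt1 and Mcm6 differed most between the mutant pools. Cdt1 loads the Mcm helicase onto origins. Its log2 signal was 6.18, 6.52 and 6.35 on the PCK arrays and 6.88, 6.78 and 6.80 on the SD arrays. It was 7.58, 7.32 and 7.53 on the FHH.Pkhd1 arrays and 7.21, 6.87 and 7.04 on the FHH arrays. PCK lay below and FHH.Pkhd1 above all other arrays, and SD and FHH overlapped. Cdt1 fell by 0.47 ± 0.10 in PCK relative to SD (limma adjusted p = 0.0027) and rose by 0.44 ± 0.10 in FHH.Pkhd1 relative to FHH (limma adjusted p = 0.0078). Relative to FHH.Pkhd1, PCK was lower by a log2 difference of -1.13 ± 0.10 (2.19-fold, limma adjusted p = 1.58e-06).

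Mcm6, a subunit of the replicative helicase, had signals of 7.10, 7.53 and 7.33 on the PCK arrays and 7.65, 7.55 and 7.47 on the SD arrays. The signals were 8.57, 8.47 and 8.50 on the FHH.Pkhd1 arrays and 8.01, 7.88 and 7.91 on the FHH arrays. PCK and SD overlapped, FHH was above both and FHH.Pkhd1 above all. Mcm6 rose by 0.58 ± 0.09 in FHH.Pkhd1 relative to FHH (1.49-fold, limma adjusted p = 0.000509), just short of 1.5-fold. It fell by 0.24 ± 0.09 in PCK relative to SD (limma adjusted p = 0.0483) and by 1.19 ± 0.09 in PCK relative to FHH.Pkhd1 (2.28-fold, limma adjusted p = 2.85e-07).

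The other 4 Mcm subunits measured repeated the rise in FHH.Pkhd1 without a passing change in PCK. Mcm2, Mcm4, Mcm5 and Mcm7 rose by 0.26, 0.29, 0.29 and 0.20 in FHH.Pkhd1 relative to FHH. Their PCK minus SD differences were -0.11, -0.09, -0.14 and -0.03, and none of them passed. Their SD minus FHH differences were -0.41, -0.46, -0.27 and -0.21, and all passed. Mcm2 was at 7.79, 7.91 and 7.91 on the PCK arrays, 7.92, 8.04 and 7.97 on the SD arrays, 8.68, 8.63 and 8.62 on the FHH.Pkhd1 arrays and 8.41, 8.34 and 8.40 on the FHH arrays. The Mcm2 arrays of the FHH background stood above all arrays of PCK and SD.

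Pcna, the sliding clamp of the replicative polymerases, averaged 10.64 ± 0.05 in PCK, 10.80 ± 0.03 in SD, 11.11 ± 0.02 in FHH.Pkhd1 and 10.85 ± 0.05 in FHH kidneys (SD, n = 3 arrays of 1 pool each). It fell by 0.16 ± 0.04 in PCK relative to SD (SE, limma adjusted p = 0.00548) and rose by 0.26 ± 0.04 in FHH.Pkhd1 relative to FHH (limma adjusted p = 0.000391). Among enzymes of nucleotide supply, Rrm1, the large subunit of ribonucleotide reductase, rose by 0.22 in FHH.Pkhd1 relative to FHH, and its PCK minus SD difference of -0.13 did not pass. Tk1, thymidine kinase, fell by 0.23 in PCK relative to SD, and its difference of 0.15 between FHH.Pkhd1 and FHH did not pass. Tyms, thymidylate synthase, passed in neither of these comparisons, with differences of 0.09 for PCK minus SD and 0.08 for FHH.Pkhd1 minus FHH. Tyms is the replication gene whose promoter lies on chromosome 9 in RefSeq, and whether it is inside the congenic segment was not examined. It fell by 0.47 ± 0.08 in PCK relative to FHH.Pkhd1 (limma adjusted p = 0.000323) and fell by 0.48 ± 0.08 in SD relative to FHH (limma adjusted p = 0.000473).

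In mitosis, Cdc25b was high in the SD pool alone. It encodes a phosphatase that activates Cdk1 at mitotic entry. Its log2 signal was 6.60, 6.67 and 6.49 on the PCK arrays and 7.59, 7.48 and 7.60 on the SD arrays. It was 6.28, 6.37 and 6.47 on the FHH.Pkhd1 arrays and 6.79, 6.58 and 6.58 on the FHH arrays. SD stood apart at the top, PCK overlapped FHH, and FHH.Pkhd1 was lowest. Cdc25b fell by 0.97 ± 0.07 in PCK relative to SD (1.96-fold, limma adjusted p = 4.2e-07) and by 0.28 ± 0.07 in FHH.Pkhd1 relative to FHH (limma adjusted p = 0.0132). SD exceeded FHH by 0.91 ± 0.07 (1.87-fold, limma adjusted p = 7.66e-07).

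Mki67, the Ki-67 antigen of dividing cells, had signals of 7.75, 7.94 and 8.04 on the PCK arrays and 8.45, 8.29 and 8.41 on the SD arrays. The signals were 8.56, 8.45 and 8.63 on the FHH.Pkhd1 arrays and 8.27, 8.28 and 8.34 on the FHH arrays. Every PCK array was below every array of the other pools. Mki67 fell by 0.48 ± 0.07 in PCK relative to SD (1.39-fold, limma adjusted p = 0.000254), rose by 0.25 ± 0.07 in FHH.Pkhd1 relative to FHH (limma adjusted p = 0.027) and fell by 0.64 ± 0.07 in PCK relative to FHH.Pkhd1 (1.56-fold, limma adjusted p = 1.36e-05).

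Cdk1, the kinase of mitotic entry, had signals of 8.32, 8.45 and 8.31 on the PCK arrays and 8.89, 8.81 and 8.76 on the SD arrays. The signals were 8.95, 8.95 and 8.94 on the FHH.Pkhd1 arrays and 8.72, 8.58 and 8.58 on the FHH arrays. PCK was lowest, FHH next, and SD and FHH.Pkhd1 were above both, with no overlap between any 2 pools. Cdk1 fell by 0.46 ± 0.05 in PCK relative to SD (limma adjusted p = 2.66e-05) and rose by 0.32 ± 0.05 in FHH.Pkhd1 relative to FHH (limma adjusted p = 0.000976).

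Ccnb2, a B-type cyclin partner of Cdk1, had signals of 8.20, 8.34 and 8.28 on the PCK arrays and 8.80, 8.73 and 8.77 on the SD arrays. The signals were 8.80, 8.78 and 8.79 on the FHH.Pkhd1 arrays and 8.84, 8.50 and 8.65 on the FHH arrays. PCK was below all others, which overlapped. Ccnb2 fell by 0.49 ± 0.07 in PCK relative to SD (limma adjusted p = 0.000148), and its difference of 0.12 ± 0.07 between FHH.Pkhd1 and FHH did not pass (limma adjusted p = 0.232). Ccnb1, the other B-type cyclin, fell by 0.47 in PCK relative to SD and differed by -0.07 between FHH.Pkhd1 and FHH, which did not pass. The other probe set of Ccnb1 gave -0.33 and 0.16, so its sign in FHH.Pkhd1 minus FHH depends on the probe set. Ccna2, the A-type cyclin of S phase and G2, fell by 0.41 in PCK relative to SD, and its difference of 0.14 between FHH.Pkhd1 and FHH did not pass.

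Most genes of chromosome segregation were lower in PCK than in SD. In PCK relative to SD, the checkpoint and spindle kinases Aurkb, Aurka and Bub1 fell by 0.39, 0.17 and 0.37. Plk1, the polo-like kinase, differed by -0.11 and did not pass. Cdc20, the activator of the anaphase-promoting complex, and Ube2c, its ubiquitin-conjugating enzyme, fell by 0.32 and 0.34. The cytokinesis genes Prc1 and Kif20a fell by 0.44 and 0.41, while Kif23, another kinesin of the midzone, differed by -0.15 and did not pass. Top2a, the topoisomerase that untangles sister chromatids, and Nusap1, a spindle-binding protein, fell by 0.30 and 0.29. Birc5, the survivin subunit of the chromosomal passenger complex, differed by -0.09 and did not pass.

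In FHH.Pkhd1 relative to FHH these genes divided. Cdc20, Ube2c, Aurka, Birc5 and Prc1 rose by 0.21, 0.20, 0.20, 0.32 and 0.12. Top2a, Aurkb, Bub1, Plk1, Kif20a, Kif23 and Nusap1 had differences of 0.16, 0.12, 0.10, 0.14, 0.10, 0.14 and 0.04, and none of these passed. Birc5 was thus among the larger mitotic rises in FHH.Pkhd1 and among the mitotic genes without a passing difference in PCK.

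Kif11, the kinesin that separates spindle poles, was highest in FHH. Its signals were 8.77, 8.78 and 8.77 on the PCK arrays, 8.66, 8.64 and 8.66 on the SD arrays, 8.56, 8.67 and 8.64 on the FHH.Pkhd1 arrays and 8.93, 8.93 and 8.90 on the FHH arrays. FHH was highest, PCK next, and SD and FHH.Pkhd1 overlapped. Kif11 fell by 0.30 ± 0.03 in FHH.Pkhd1 relative to FHH (limma adjusted p = 7.36e-05). For PCK minus SD it gave 0.12 ± 0.03 (limma adjusted p = 0.0165), but its second probe set gave -0.14 and had its lowest mean in PCK.

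**Figure D3:**
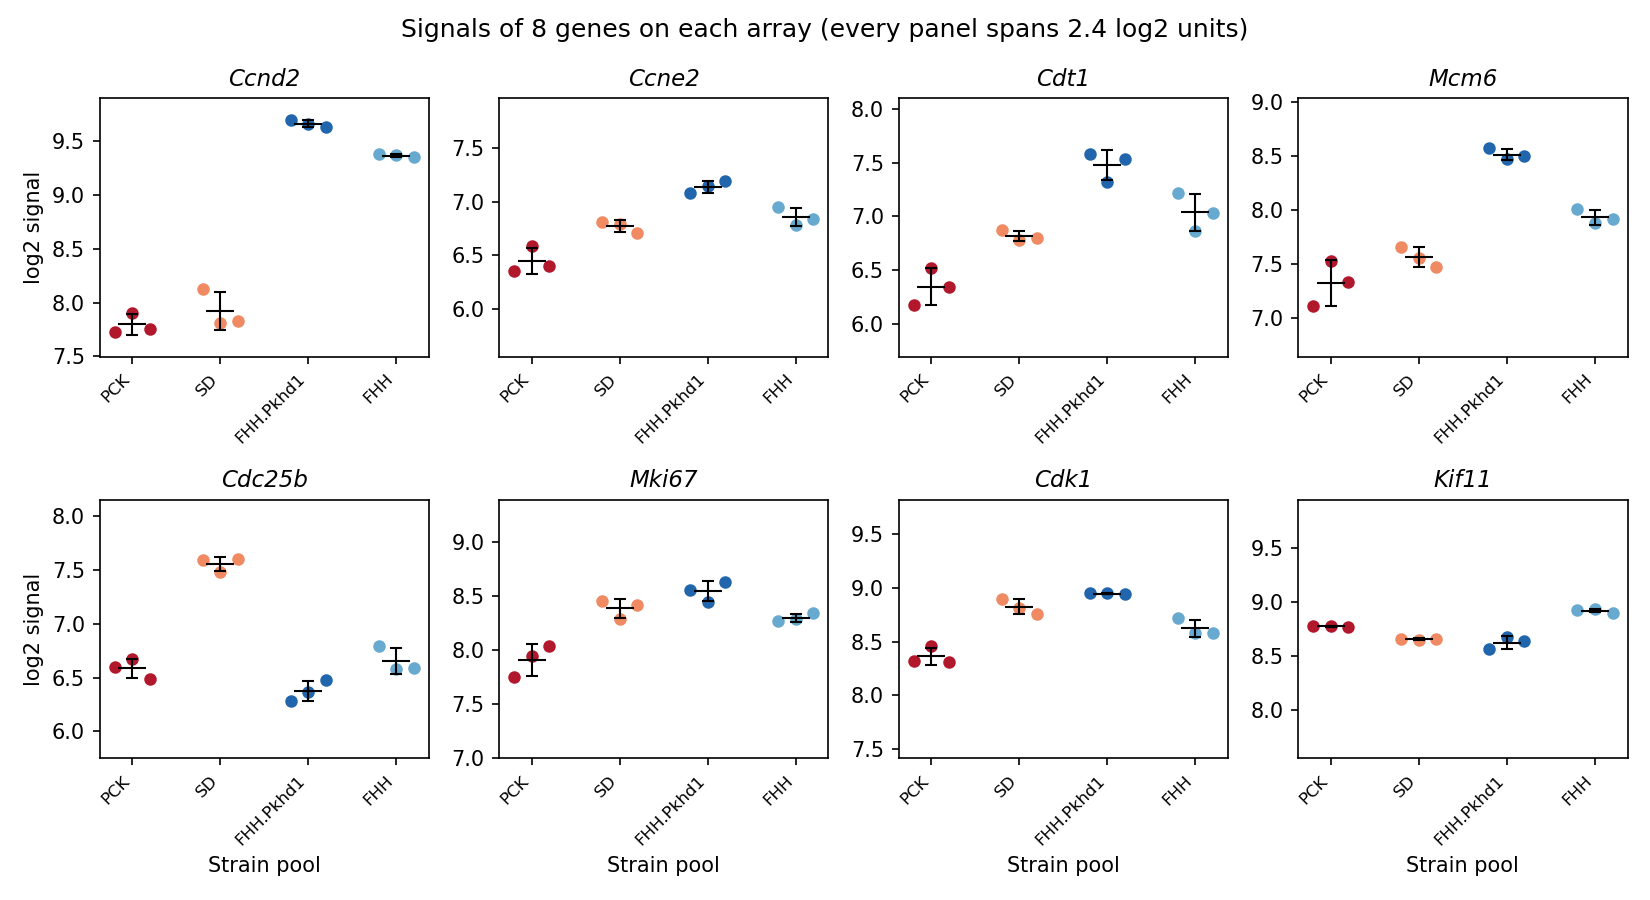
Log2 signal of 8 genes (Ccnd2, Ccne2, Cdt1, Mcm6, Cdc25b, Mki67, Cdk1 and Kif11) on each array by strain pool, with points for the 3 arrays and a bar for the mean ± SD; every panel spans 2.4 log2 units. Ccnd2 separates the FHH background from PCK and SD, Cdc25b is high in SD alone, at 7.48 to 7.60, and Mki67 is lowest in PCK, at 7.75 to 8.04.

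The first comparison set the PCK pool against SD, the stock of its origin. Of the 36 tested genes, 20 passed lower in PCK, where 18.8% of all genes tested did so, and 2 passed higher (Ccnd1 and Kif11), where 17.3% did. Called lower was Cdc25b alone, against 1.42% of all genes tested. The median difference was -0.20, and that of all genes tested was -0.0027. By role, the counts passing lower were 15 of 19 mitosis genes, 4 of 10 replication genes and 1 of 7 G1/S drivers, with medians of -0.37, -0.13 and -0.07. The arrays of the pools did not overlap for 21 genes lower in PCK, where the share of all genes tested was 24.7%. Erythroid markers moved with this comparison. Their mean level was 8.78 to 8.86 on the PCK arrays and 9.70 to 9.83 on the SD arrays, with 3 of the 4 detected markers called lower and Epb42 below detection. Ahsp, 1 of those called, lay just below the detection level in PCK. The detected marker that was not called, Slc4a1, is also a gene of the collecting duct. Markers of injured tubule moved the other way, at 10.17 to 10.19 on the PCK arrays and 9.11 to 9.17 on the SD arrays. Of these, 5 of 6 passed higher and 2 were called, Havcr1 at 3.15 and Clu at 1.55. Vim, at 10.38 in PCK and 10.44 in SD, did not pass. Collecting duct markers were at 9.76 to 9.80 in PCK and 9.39 to 9.41 in SD, with 5 of 7 passing higher and 2 of them called. Urothelium markers were at 6.38 to 6.43 in PCK and 5.96 to 6.10 in SD, with 3 of the 4 detected markers passing higher and Krt5 and Krt20 below detection. Leukocyte markers were at 8.15 to 8.22 in PCK and 8.04 to 8.10 in SD, with Cd3e, Cd79b and Itgam below detection. The mean poly-A control signal differed by 0.35 and the 3′ minus 5′ signal of beta-actin by 0.23 between PCK and SD, each with p = 0.1 by two-sided exact permutation of the arrays, the lowest p this design can reach. The part of these markers and controls in the result was not tested.

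The second comparison set the congenic FHH.Pkhd1 pool against FHH, and it shares no array with the first. The SE and p of both, however, rest on the same spread, estimated for each gene over all 12 arrays. Here 20 of the 36 genes passed higher in FHH.Pkhd1, where 12.5% of all genes tested did so, and 2 passed lower (Cdc25b and Kif11), where 9.68% did. None was called, against 1.26% of all genes tested in either direction. The median difference was 0.18, and that of all genes tested was 0.01. The counts passing higher were 8 of 10 replication genes, 5 of 7 G1/S drivers and 7 of 19 mitosis genes, with medians of 0.26, 0.26 and 0.14. The arrays did not overlap for 24 genes higher in FHH.Pkhd1, against 21.9% of all genes tested. Adrenal cortex markers moved with this comparison, at 7.90 to 8.02 on the FHH.Pkhd1 arrays and 7.04 to 7.16 on the FHH arrays, with 3 of the 4 detected markers called higher. Collecting duct markers were at 9.89 to 9.94 in FHH.Pkhd1 and 9.63 to 9.67 in FHH, with 6 of 7 passing higher. Stroma markers were at 10.55 to 10.59 in FHH.Pkhd1 and 10.40 to 10.44 in FHH, with 3 of 4 passing higher. Injured tubule markers divided, with 3 of 6 passing higher and 2 lower, and Havcr1 was called lower at -0.93. Erythroid markers were at 9.07 to 9.14 in FHH.Pkhd1 and 8.81 to 8.90 in FHH. Their differences were between 0.05 and 0.65, and the highest was that of Slc4a1, the only one called. Added poly-A control transcripts were lower in FHH.Pkhd1 than in FHH, with a difference of -1.10 in mean log2 signal, and the 3′ minus 5′ signal of beta-actin differed by -0.19, each with a two-sided exact permutation p = 0.1. The part of these markers and controls in the result was not tested.

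The difference between these 2 contrasts was tested directly as PCK minus SD less FHH.Pkhd1 minus FHH. It was negative past the test for 30 of the 36 genes, where 16.7% of all genes tested were, and positive for Kif11, where 14.0% were. Called were 7 genes, all negative, against 2.12% of all genes tested. They were Cdt1, Mcm6, Cdk1, Mki67, Cdc25b, Ccnb2 and Ccne2. The tests of Ccnd1, Cdk4, Ccne1, Tyms and Kif23 did not pass. The median of this difference was -0.41, and that of all genes tested was -0.01. For Cdk1 the value was -0.78 ± 0.07 (SE, limma adjusted p = 7.54e-06), and for Cdt1 it was -0.91 ± 0.14 (limma adjusted p = 0.000414). Cell type markers also moved in this difference. All 4 detected erythroid markers and 3 of the 4 detected adrenal cortex markers were called negative. Of the injured tubule markers 3 of 6 were called positive, as were 3 of the 4 detected urothelium markers. Whether these markers have a part in the result was not tested.

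**Figure D4:**
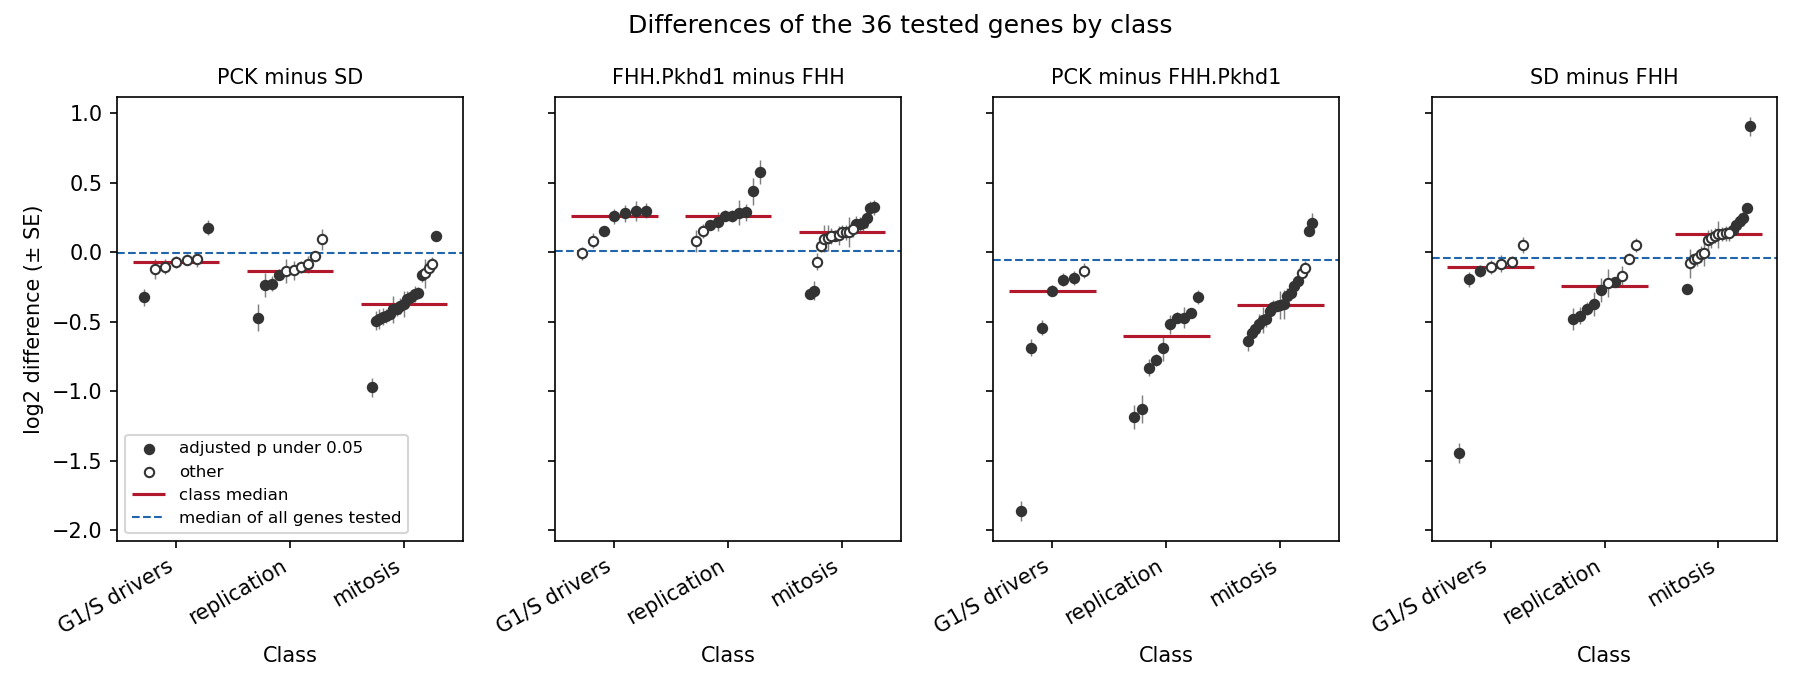
Log2 difference ± SE of each of the 36 tested genes by class in 4 comparisons, with filled points for genes with an adjusted p under 0.05, a red line for the class median and a dashed blue line for the median of all genes tested. The mitosis median is -0.37 for PCK minus SD and 0.13 for SD minus FHH, and the replication median is -0.60 for PCK minus FHH.Pkhd1.

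PCK and FHH.Pkhd1, which share the Pkhd1 segment, differed in all 10 replication genes. This comparison shares its arrays with the first 2. In PCK relative to FHH.Pkhd1, 31 of the 36 genes passed lower, where 35.6% of all genes tested did so, and Cdc25b and Kif11 passed higher, where 18.3% did. Called lower were 8 genes (Ccnd2, Ccne2, Cdt1, Mcm2, Mcm4, Mcm5, Mcm6 and Mki67), against 2.9% of all genes tested. The median difference was -0.43, and that of all genes tested was -0.06. The replication genes that passed lower were 10 of 10, with a median of -0.60 and a range of -1.19 to -0.32. Of the mitosis genes 15 of 19 passed lower, with a median of -0.38, and of the G1/S drivers 6 of 7. Adrenal cortex markers were at 5.65 to 5.81 in PCK and 7.90 to 8.02 in FHH.Pkhd1, and those of injured tubule were at 10.17 to 10.19 in PCK and 8.99 to 9.06 in FHH.Pkhd1. Of the 6 injured tubule markers 4 were called higher, and Vim passed lower. All 4 detected adrenal cortex markers were called lower. Star and Cyp11a1 among them, and Plin1 among the adipocyte markers, lay below the detection level in PCK. Adipocyte markers were at 7.22 to 7.26 in PCK and 8.21 to 8.24 in FHH.Pkhd1, with 4 of 5 called lower, and stroma markers were at 10.10 to 10.14 in PCK and 10.55 to 10.59 in FHH.Pkhd1, with 2 of 4 called lower. The mean poly-A control signal differed by 0.81 and the 3′ minus 5′ signal of beta-actin by 0.13, each with a two-sided exact permutation p = 0.1. The part of these markers and controls in the result was not tested.

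SD and FHH, the pools without the segment, were compared last. Of the 36 genes, 6 passed higher in SD, where 12.6% of all genes tested did so, and 10 passed lower, where 24.5% did. With quantile normalization the counts were 10 higher and 8 lower, and with arrays centred on their medians they were 11 higher and 7 lower. Called were Ccnd2, lower, and Cdc25b, higher, where 3.31% of all genes tested were called in either direction. The median difference was -0.05, and that of all genes tested was -0.04. No replication gene passed higher and 6 of 10 passed lower (Mcm2, Mcm4, Mcm5, Mcm6, Mcm7 and Tyms), with a class median of -0.25. Of the mitosis genes, 6 of 19 passed higher (Ccnb1, Cdk1, Cdc25b, Aurka, Prc1 and Ube2c) and Kif11 passed lower, with a class median of 0.13. The difference between the classes was not tested. Erythroid markers were at 9.70 to 9.83 in SD and 8.81 to 8.90 in FHH, with 3 of the 4 detected markers called higher. Adrenal cortex markers were at 5.73 to 5.76 in SD and 7.04 to 7.16 in FHH, with 3 of the 4 detected markers called lower, and adipocyte markers were at 7.30 to 7.35 in SD and 8.21 to 8.32 in FHH, with 4 of 5 called lower. Star and Plin1, both called, lay below the detection level in SD. Of the 4 detected urothelium markers 2 were called lower, Upk1b at -1.10 and Upk3a at -0.76. Injured tubule markers divided, with Havcr1 called lower at -0.90 and Clu called higher at 0.70. Among the 4 stroma markers Dcn alone was called, lower at -0.85. The mean poly-A control signal differed by -0.64 and the 3′ minus 5′ signal of beta-actin by -0.28, each with a two-sided exact permutation p = 0.1. The part of these markers and controls in the result was not tested.

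Several genes have more than 1 probe set, which gives a second reading of the same RNA. Of the 37 genes, 10 had 15 other probe sets, of which 10 in 8 genes were detected. The sign of the other probe set matched that of the main one for 6 of 10 in PCK minus SD, 8 of 10 in FHH.Pkhd1 minus FHH, 8 of 10 in PCK minus FHH.Pkhd1 and 9 of 10 in SD minus FHH. In PCK minus SD the genes that departed included Ccnd1 and Kif11, the 2 that passed higher on their main probe sets.

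Further genes of the same machinery were taken from lists of known members of each process. Of all genes tested, 18.8% passed lower and 17.3% higher in PCK relative to SD, and 12.5% passed higher and 9.68% lower in FHH.Pkhd1 relative to FHH. The shares were 35.6% lower and 18.3% higher in PCK relative to FHH.Pkhd1, and in SD relative to FHH 24.5% passed lower and 12.6% higher. Of 42 other replication genes tested, 18 passed lower and 1 higher in PCK relative to SD, and 19 passed higher and 1 lower in FHH.Pkhd1 relative to FHH. In PCK relative to FHH.Pkhd1, 35 passed lower and none higher, with 13 called lower, where 2.9% of all genes tested were, and in SD relative to FHH 19 passed lower and none higher. The largest called difference was that of Dscc1, a subunit of the clamp-loading complex of sister chromatid cohesion, at -1.18 ± 0.11 for PCK minus FHH.Pkhd1 (limma adjusted p = 3.32e-06). Uhrf1, which guides maintenance of DNA methylation at replication forks, differed by -1.06 ± 0.07 (limma adjusted p = 1.45e-07). Gins1, a subunit of the GINS complex of the helicase, differed by -0.92 and Hells, a chromatin remodeller, by -0.86. Gins1 lay below the detection level in PCK, and Hells was above it in FHH.Pkhd1 alone. In FHH.Pkhd1 relative to FHH, Gins1 rose by 0.54 and Uhrf1 by 0.46. In PCK relative to SD, Dscc1 fell by 0.49 and Orc6, an origin recognition subunit, by 0.38. In SD relative to FHH, the origin recognition subunits Orc3 and Orc5 fell by 0.52 and 0.45.

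Of 45 other mitosis genes tested, 32 passed lower and 1 higher in PCK relative to SD, against 18.8% and 17.3% of all genes tested. In FHH.Pkhd1 relative to FHH 13 passed higher and 1 lower, against 12.5% and 9.68%. Cenpf, a kinetochore protein, fell by 0.74 ± 0.06 in PCK relative to SD (limma adjusted p = 1.2e-06), and Cdkn3, a phosphatase acting on cyclin-dependent kinases, by 0.63 ± 0.05 (limma adjusted p = 1.46e-06). In FHH.Pkhd1 relative to FHH none was called, and Cenpk, a centromere protein, and Cks2, a subunit of Cdk1 complexes, rose by 0.32 each. In PCK relative to FHH.Pkhd1, 35 passed lower, against 35.6% of all genes tested. Of these 7 were called lower and 2 further genes were called higher, against 2.9% and 2.92%. Cenpk fell there by 1.06 and Cdkn3 fell by 0.75. Melk, a kinase of dividing cells, and Incenp, a chromosomal passenger protein, were higher in PCK than in FHH.Pkhd1 by 0.95 and 0.73, and in SD than in FHH by 0.81 and 0.70. In SD relative to FHH, 10 passed higher and 3 lower, against 12.6% and 24.5%, and Cit, the citron kinase of cytokinesis, fell by 0.68.

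Among 24 inhibitors, pocket proteins and checkpoint genes, 3 passed higher and 6 lower in PCK relative to SD, against 17.3% and 18.8% of all genes tested, and 7 passed higher and 1 lower in FHH.Pkhd1 relative to FHH, against 12.5% and 9.68%. Gadd45g, a stress-response gene, fell by 0.78 ± 0.06 in PCK relative to SD (limma adjusted p = 1.56e-06) and was higher by 0.83 in SD than in FHH. The S phase checkpoint kinase Chek1 rose by 0.47 ± 0.08 in FHH.Pkhd1 relative to FHH (limma adjusted p = 0.00146) and, below the detection level in PCK, differed by -0.93 for PCK minus FHH.Pkhd1. The pocket protein Rbl1 rose by 0.28 in FHH.Pkhd1 relative to FHH. In this list 12 genes passed lower and 3 higher in PCK relative to FHH.Pkhd1, where 35.6% and 18.3% of all genes tested did. In SD relative to FHH 6 passed lower and 3 higher, near the 24.5% and 12.6% of all genes tested. Of 17 other G1/S genes, 3 passed higher and 4 lower in PCK relative to SD, near the 17.3% and 18.8% of all genes tested. In FHH.Pkhd1 relative to FHH 3 passed higher and none lower, against 12.5% and 9.68%. Myc is a growth-promoting transcription factor. It rose by 0.54 ± 0.06 in PCK relative to SD (limma adjusted p = 1.76e-05) and by 0.61 in PCK relative to FHH.Pkhd1, while Cdk7, the kinase that activates other cyclin-dependent kinases, fell by 0.24 in PCK relative to SD. E2f2, a further E2F factor, was higher in SD than in FHH, where it was below the detection level, by a log2 difference of 1.40 ± 0.06 (limma adjusted p = 6.91e-09). It was higher by 0.87 in PCK than in FHH.Pkhd1 and by 0.37 in FHH.Pkhd1 than in FHH. Ccnd3, the third D-type cyclin, rose by 0.24 in FHH.Pkhd1 relative to FHH. In PCK relative to FHH.Pkhd1, 3 of these G1/S genes passed higher and 10 lower, against 18.3% and 35.6% of all genes tested, and in SD relative to FHH 2 passed higher and 3 lower, against 12.6% and 24.5%.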

How the data were processed

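The authors deposited a log2 signal per probe set for each of 12 arrays. Per the submitters' processing notes, RMA and Partek 6.2 were used. What order they ran in, and whether arrays were normalized jointly, are points not given in the sources used here. Among 31099 probe sets were 57 controls that entered no test. A single gene symbol was paired with 20826 probe sets, several with 436 and none with 9780. GRCr8 gene records, used for names only, matched 20812. With 1 probe set per gene there were 14204 genes, and the 10887 with a pool mean at or above the detection level were tested.

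A linear model with a mean per strain was fitted to the 12 arrays (limma 3.58.1, R 4.3.3), with moderated variances (prior degrees of freedom 4.02, residual 8). Groups came from the strain labels. The number of arrays limits the precision. Controls were compared by exact permutation of 3 arrays against 3. Every listed gene with a probe set is named, and of each further list up to 4 called genes per comparison, or the 2 with the largest differences where none was called. The members and lists were chosen with earlier results of these data known, so no test was made over a list.

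Simulated data for 10887 genes, with PCK minus SD as the comparison read out, served as a check. Of genes changed 1.1-fold 24% passed, so a difference of that size that did not pass may have been missed. Of genes changed 1.25-fold 82% passed and 0% were called, of those changed 1.75-fold 98% were called, and of those changed 2-fold 100% were called. Of unchanged genes 9 passed and 0 were called. Far fewer genes were changed in the simulation, 50 at each fold, than passed in PCK minus SD, with 1887 higher and 2048 lower. The adjusted p depends on how many genes differ, so these shares may not hold for the real comparisons. Alternatives covered normalization, probe set choice, filters, fold limit, variance model, arrays in the fit, the class make-up, the replicate number as a block and leaving out each array. Figures were drawn with matplotlib 3.10.9.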

Additional observations from a re-analysis of the deposited data

Results flagged for a closer look

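For 7 genes the PCK minus SD difference and the FHH.Pkhd1 minus FHH difference were unlike each other in a direct test of the 2 contrasts, past an adjusted p of 0.05 and 1.5-fold. The difference of differences was -0.91 for Cdt1 (SE 0.14, limma adjusted p = 0.000414), -0.82 for Mcm6 (SE 0.12, limma adjusted p = 0.000332) and -0.78 for Cdk1 (SE 0.07, limma adjusted p = 7.54e-06). It was -0.73 for Mki67 (SE 0.10, limma adjusted p = 0.000201), -0.69 for Cdc25b (SE 0.10, limma adjusted p = 0.000206), -0.61 for Ccnb2 (SE 0.10, limma adjusted p = 0.000506) and -0.61 for Ccne2 (SE 0.09, limma adjusted p = 0.000245). In Cdt1, Mcm6, Cdk1, Mki67 and Ccne2 the difference was negative in the PCK pair, positive in the FHH.Pkhd1 pair and past the test in both. For Mcm6 the PCK minus SD difference only just passed (limma adjusted p = 0.0483), and the arrays of those pools overlapped. In Cdc25b both differences were negative, at -0.97 for PCK minus SD and -0.28 for FHH.Pkhd1 minus FHH. In Ccnb2 the PCK minus SD difference of -0.49 passed and the FHH.Pkhd1 minus FHH difference of 0.12 did not. The 2 pairs differ in strain background and in how the mutant was bred, and these cannot be told apart in this difference. Controls also moved in opposite directions in the 2 pairs. The mean poly-A control signal differed by 0.35 for PCK minus SD and by -1.10 for FHH.Pkhd1 minus FHH. The 3′ minus 5′ signal of beta-actin differed by 0.23 and by -0.19. Whether these controls, or the cell type markers that moved in this difference, have a part in it was not tested.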

How the results depend on the processing

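Results are given here as first the value under an alternative and then that reported. Arrays of 1 pool per strain limit every value to the spread between arrays. With a fold limit of 1.2 the called counts were 16 against 1 for PCK minus SD, 12 against 0 for FHH.Pkhd1 minus FHH, 27 against 8 for PCK minus FHH.Pkhd1, 9 against 2 for SD minus FHH and 28 against 7 for the difference between the contrasts, and with a limit of 2 they were 0, 0, 3, 1 and 0. Quantile normalization gave 1 gene passing higher in PCK minus SD, 10 higher in SD minus FHH, a list median of -0.37 for PCK minus FHH.Pkhd1 and a reversed one of 0.0034 for SD minus FHH. Centring on array medians gave 11 higher in SD minus FHH, and medians of -0.36 and 0.0208 for the same 2 comparisons. The mean of probe sets gave 0 higher in PCK minus SD and 1 in PCK minus FHH.Pkhd1, medians of 0.14 for FHH.Pkhd1 minus FHH, -0.38 for PCK minus FHH.Pkhd1, -0.0059 for SD minus FHH and -0.38 for the difference between the contrasts, and a replication minus mitosis value of -0.29 for PCK minus FHH.Pkhd1. The second probe set gave 0 higher in PCK minus SD, 1 in PCK minus FHH.Pkhd1 and 0 for the difference between the contrasts, a median of -0.0033 for SD minus FHH and a replication minus mitosis value of -0.27 for PCK minus FHH.Pkhd1. That value, with class means, was 0.20 for PCK minus SD, 0.17 for FHH.Pkhd1 minus FHH, -0.36 for PCK minus FHH.Pkhd1 and 0.0274 for the difference between the contrasts. Without Ccna2, Mki67, Top2a and Cdk1 it was 0.21 for PCK minus SD and -0.29 for PCK minus FHH.Pkhd1, and with the stricter filter it was 0.28 and -0.31. Single genes reversed were Ccnd1 in PCK minus SD (-0.0598 by the mean of probe sets, -0.15 by the second), Kif11 in PCK minus SD (-0.0111 and -0.14) and Kif11 in PCK minus FHH.Pkhd1 (-0.0194 by the second). Calls lost were Ccne2 in PCK minus FHH.Pkhd1 (-0.28 by the mean of probe sets) and Mki67 there (-0.58 by quantile normalization, -0.57 by centring, -0.56 without PCK replicate 1). In the difference between the contrasts Ccnb2 was lost without PCK replicate 1 (-0.58) or FHH replicate 2 (-0.53), and Ccne2 by the mean of probe sets (-0.15) and without PCK replicate 1 (-0.56), FHH replicate 2 (-0.57) or FHH.Pkhd1 replicate 3 (-0.58).

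Leaving out each array in turn gave, for PCK minus SD, 0 to 2 passing higher (1 without PCK replicate 2 or SD replicate 3, 0 without SD replicate 2), 18 to 21 lower, medians of -0.25 to -0.18 and replication minus mitosis values of 0.18 to 0.24. For FHH.Pkhd1 minus FHH it gave 14 to 22 higher, 1 to 2 lower (1 without FHH.Pkhd1 replicate 1), 0 to 1 called (1 without FHH replicate 1, FHH.Pkhd1 replicate 2 or FHH.Pkhd1 replicate 3), medians of 0.15 to 0.21 and replication minus mitosis values of 0.0871 to 0.14. For PCK minus FHH.Pkhd1 it gave 31 to 33 lower, 1 to 2 higher (1 without PCK replicates 1 or 2 or FHH.Pkhd1 replicates 1 or 2), 7 to 9 called, medians of -0.47 to -0.42 and replication minus mitosis values of -0.29 to -0.18. The replication minus mitosis value was -0.41 to -0.33 for SD minus FHH and 0.0923 to 0.15 for the difference between the contrasts. The replicate numbers were not used to pair arrays in the main fit. Between pools, correlations of array deviations ran from -0.331 to 0.338 for arrays of the same number and from -0.381 to 0.321 for arrays of different numbers. Of 12 arrays, 6 matched their own number best. These overlapping ranges cannot settle whether the numbers pair the arrays. With the replicate block, genes passing higher and lower were 2 and 19 for PCK minus SD, 20 and 2 for FHH.Pkhd1 minus FHH, 2 and 32 for PCK minus FHH.Pkhd1, 7 and 9 for SD minus FHH, and 1 and 30 for the difference between the contrasts. The causes of these changes were not tested.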

Other observations

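Genes outside the lists that hold the E2F motif in their promoter window were counted in the same comparisons. Of 340 such genes tested, 42.1% passed lower in PCK relative to FHH.Pkhd1, where 35.2% of the 8949 genes outside the lists with a promoter entry did so. In FHH.Pkhd1 relative to FHH, the median difference was 0.03, against 0.01, and in PCK relative to SD 20.9% passed lower, against 18.7%. In SD relative to FHH the share passing lower was 24.7%, against 24.5%. Of 976 genes with the CHR element, 20.7% passed lower in PCK relative to SD, against 18.7%, and of 3353 genes with CCAAT 20.3% did. These shares are descriptions, the motif groups share genes, and no test was made of them.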
